A study of Mus musculus with 15 samples.

Results

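CD8 T cells that were CD44+CD62L+ after 14 days in a memory-inducing cocktail were compared with naive CD8 T cells by RNA sequencing. The comparison rests on 6 of the 15 RNA-seq libraries, chosen by their labels: 3 of the cocktail CD44+CD62L+ population and 3 of the naive population. All cells came from OT-I mice, whose CD8 T cells carry a transgenic receptor for an ovalbumin peptide bound to a class I molecule. For the cocktail population, purified CD8 T cells were mixed with bone marrow dendritic cells that displayed the SIINFEKL peptide. They were then kept in the cytokines IL-7 and IL-21 with the small molecules 2-deoxyglucose and TWS119, passaged once and sorted as CD44+CD62L+, the gate of central memory cells. Naive cells are listed with 0 days in culture, and their gate is CD44loCD62L+ in the sample labels and CD44-CD62L+ in the design text. The other libraries, 3 each, were of cocktail CD44loCD62L+, cocktail CD44+CD62L- and IL-2 CD44+CD62L- cells, all after 14 days. Below, "cocktail cells" without a gate are the CD44+CD62L+ population. The 3 libraries of a population were technical replicates of its RNA, so every p-value here measures only the spread between libraries, which is technical. The cocktail was given as a whole, so its 4 components cannot be told apart, nor can they be told apart from antigen, dendritic cells and time in culture.

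Naive CD8 T cells circulate through lymph nodes in a resting state, entering through CD62L and CCR7 and leaving through the egress receptor S1PR1, under the control of the factors Foxo1 and Klf2. Antigen drives them to divide, to take up glucose and to load granules with granzymes and perforin. Central memory cells have been through that division yet keep CD62L, CCR7, the IL-7 receptor and the factor TCF1, encoded by Tcf7. IL-7 sustains survival through STAT5 and Bcl2, IL-21 signals mainly through STAT3, 2-deoxyglucose is a glucose analogue that blocks glycolysis, and TWS119 inhibits the kinase GSK3, which marks beta-catenin for degradation.

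Values are FPKM, fragment counts scaled to transcript length and library size, as the authors deposited them. Read counts were not used here and depth is unknown. Between 10448 and 10452 genes reached 1 FPKM in the cocktail libraries and between 10006 and 10026 in the naive libraries. The median coefficient of variation among genes of 10 to 100 FPKM was 1.93% in the cocktail and 1.88% in the naive libraries. Small RNA genes held 4.86% to 7.14% of the summed FPKM in cocktail and 11.6% to 17.2% in naive libraries. Means are given with the SD over 3 libraries, and fold changes are differences of log2(FPKM + 1), cocktail minus naive, with their SE, which understates the change of genes near 0.

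The labels were first checked against the cell markers. Transcripts of the CD8 T cell lineage were high in both populations: Cd8a stood at 278 ± 1.46 FPKM in cocktail cells and 465 ± 3.39 FPKM in naive cells, and Cd3e, a subunit of the T cell receptor complex, at 253 ± 2.67 FPKM in cocktail cells and 301 ± 3.29 FPKM in naive cells. Of the 19 sort marker and T cell identity genes 4 fell and 1 rose, with a median log2 fold change of -0.53, or 8 fell under quantile normalization. Genes are called higher or lower at a limma adjusted p under 0.05 and a log2 fold change of at least 1, as 14.4% and 8.44% of all genes tested were. Cd8b1, the other chain of the CD8 coreceptor, was among those that fell, at 397 FPKM in cocktail and 1059 FPKM in naive cells (log2 fold change -1.42). Cd5 and Cd6, which damp T cell receptor signalling, fell too, at 44.3 FPKM in cocktail and 130.2 FPKM in naive cells and at 56.97 FPKM in cocktail and 162 FPKM in naive cells. Cd4 averaged 0.00359 FPKM in cocktail cells and 0.305 FPKM in naive cells, under the level at which genes were tested. Of the 4 CD4 T cell markers tested, 2 were higher and 1 lower, and the 4 summed to 37.25 to 38.84 FPKM in cocktail libraries, against 11.47 to 13.4 FPKM in naive libraries. Zbtb7b, the factor ThPOK of the CD4 lineage, was higher at 9.19 FPKM in cocktail and 0.234 FPKM in naive cells, as was Tnfrsf4, the receptor OX40, at 27.7 FPKM in cocktail and 4.32 FPKM in naive cells, while Cd40lg was lower and Foxp3 was at 0.0180 FPKM in cocktail and 0.158 FPKM in naive cells. Cd44 encodes a protein used for the sort, so its difference is not independent of it: it was at 37.8, 39.5 and 38.3 FPKM in the cocktail libraries, against 7.25, 7.47 and 7.01 FPKM in the naive libraries, which is 5.32-fold higher.

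Traces of other cells differed between the populations. All 7 B cell markers tested, of 11 listed, were lower in cocktail cells, where 8.44% of all genes were lower. The markers summed to 2.29 to 2.50 FPKM in cocktail libraries, against 42.9 to 44.1 FPKM in naive libraries. A gene was tested if any population averaged 1 FPKM or more. Markers near 0 in cocktail cells were thus tested because of another population, and the count of 7 is in part set by that rule. With a pseudocount of 5, which damps low genes, 2 of the 7 were called. Ms4a1, the B cell antigen CD20, was listed at 0 in every cocktail library and averaged 3.35 FPKM in naive cells, and Cd79a stood at 0.159 FPKM in cocktail and 9.35 FPKM in naive cells. The neutrophil transcripts S100a8 and S100a9 were also lower, at 2.29 FPKM in cocktail and 12.7 FPKM in naive cells and at 1.18 FPKM in cocktail and 14.2 FPKM in naive cells. Over all genes, 14.4% were higher and 8.44% lower in cocktail cells. Of 16 dendritic cell and macrophage markers tested, 2 were higher (12.5%) and 3 lower (18.8%), or 5 lower without cocktail library 2 and 6 under quantile normalization. The 3 were class II genes or the invariant chain: H2-Aa at 1.10 FPKM in cocktail and 21.8 FPKM in naive cells, H2-Eb1 at 0.937 FPKM in cocktail and 10.3 FPKM in naive cells and Cd74 at 17.2 FPKM in cocktail and 57.3 FPKM in naive cells. H2-Ab1, another class II gene, was not called, with a log2 fold change of 0.22. Itgax, the dendritic cell integrin CD11c, was at 0.664 FPKM in cocktail and 0.402 FPKM in naive cells. Ncr1, which marks NK cells, was listed at 0 in cocktail cells and averaged 0.0639 FPKM in naive cells. Of 7 NK-associated transcripts listed, the 3 tested were higher in cocktail cells: Gzmc, Klri2 and Klre1. Their sum was 65.5 to 68.6 FPKM in cocktail libraries and 1.49 to 1.83 FPKM in naive libraries. Most of the 3 were thus tested because of cultured cells, and this count too is in part set by the test rule. The part of these traces and of the CD4 T cell markers in the genes described as higher or lower in cocktail cells was not tested.

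Against naive cells, 2564 of 11242 tested genes were called changed in cocktail cells, at a limma adjusted p under 0.05 and a log2 fold change of at least 1. Of these, 1615 were higher, 14.4% of the genes tested, and 949 were lower, 8.44%. A further 7634 genes passed the adjusted p with a smaller change, so the fold minimum decided most calls. Fewer cells of a type and less RNA per cell cannot be told apart in these bulk samples. The median log2 fold change over all genes tested was -0.0043. Counts of a gene list cover its members that were tested and leave out those below the test level. At least 4-fold on this scale, 618 genes were higher and 203 lower.

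**Figure D1:**
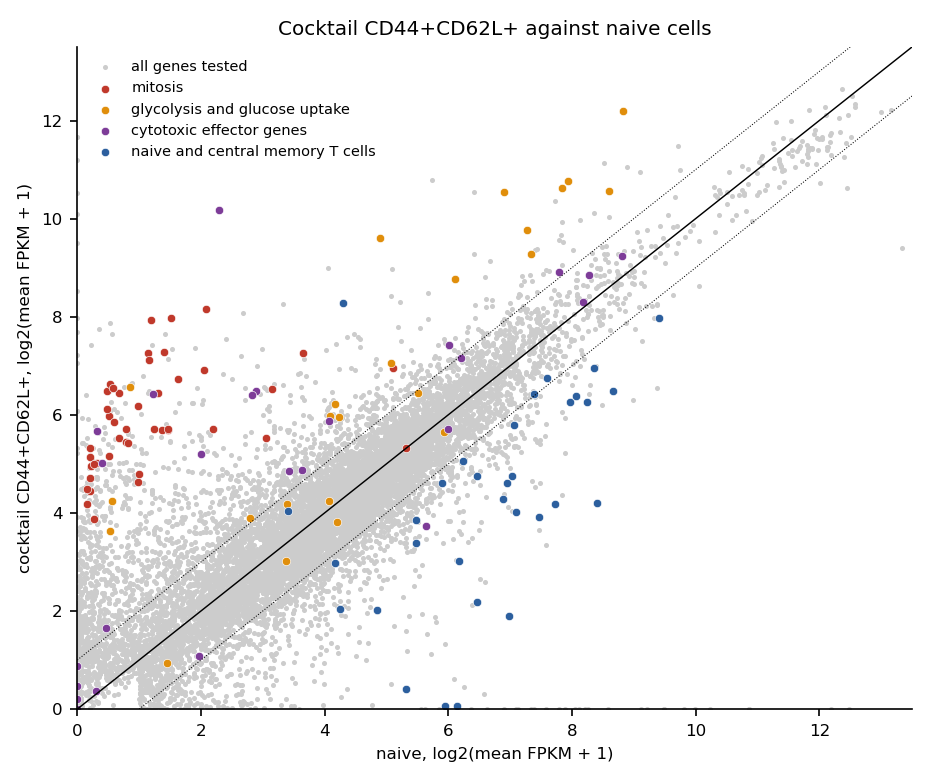
Each point is a tested gene, with its mean in naive cells on the horizontal and in cocktail CD44+CD62L+ cells on the vertical axis, both as log2(mean FPKM + 1); dotted lines mark a log2 fold change of 1 in either direction. Mitosis genes, with 43 of 44 called higher, lie above the lines near the left edge, and the naive and central memory list, with 28 of 32 called lower, lies mostly below them.

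The 15 highest genes with a mean of at least 10 FPKM joined a granule protease, metal-binding proteins and the machinery of cell division. Gzmb, granzyme B, led with 1158, 1152 and 1151 FPKM in the cocktail libraries, against 3.96, 3.92 and 3.84 FPKM in the naive libraries, a log2 fold change of 7.88 ± 0.0097 (limma adjusted p = 4.78e-27). Mt1 and Mt2, metallothioneins that bind zinc and copper, were at 216, 219 and 211 FPKM in cocktail and 0.517, 0.102 and 0.205 FPKM in naive libraries and at 169.6, 171 and 175 FPKM in cocktail and 0.198, 0.195 and 0.0984 FPKM in naive libraries. Nrn1, which encodes the surface-anchored protein neuritin, had 234, 235 and 236 FPKM in cocktail and 0.474, 0.393 and 0.446 FPKM in naive libraries. In each of these 4 genes, the lowest cocktail library lay far above the highest naive library. Another 9 places went to genes of mitosis or chromosome structure: Ube2c, Birc5, Fam64a, Ccnb2, Aurkb, Top2a, Ccnb1, Nusap1 and Mki67. The last 2 were Serpina3g, a protease inhibitor of activated lymphocytes, at 199 FPKM in cocktail and 1.69 FPKM in naive cells, and the inhibitory receptor Lag3.

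Among the 15 lowest genes were receptors and regulators of resting T cells. Dtx1, a regulator of Notch signalling, had 0.216, 0.213 and 0.260 FPKM in cocktail and 97.02, 93.2 and 93.6 FPKM in naive libraries, a log2 fold change of -6.28 ± 0.040 (limma adjusted p = 4.42e-20). Il6ra, the IL-6 receptor, and Ccr9, the receptor for the gut and thymus chemokine CCL25, had means of 0.0467 FPKM in cocktail and 69.5 FPKM in naive cells and of 0.0484 FPKM in cocktail and 61 FPKM in naive cells. Both were thus close to 0 in all 3 cocktail libraries. Itgae, the integrin CD103, stood at 0.324 FPKM in cocktail and 39.02 FPKM in naive cells, Vipr1, a neuropeptide receptor, at 0.419 FPKM in cocktail and 32.8 FPKM in naive cells, and Cd7 at 9.10 FPKM in cocktail and 190.2 FPKM in naive cells. The others were Fam101b, Atp1b1, Igfbp4, Slc16a5, St6gal1, Rcn3, Klf3, Klf2 and Ggt1, with log2 fold changes between -5.80 and -4.14.

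The transcripts that define naive and central memory T cells were lower in cocktail cells as a group, and most of them were above the IL-2 culture. Of 32 members tested, 28 fell and 1 rose, with a median log2 fold change of -2.15, where 8.44% of all genes were lower. By role, 11 of 13 transcription factors fell, as did all 5 homing and egress receptors and 4 of 5 cytokine and costimulatory receptors. Tcf7 (chr11:52246527-52283383) was at 249, 252 and 248 FPKM in the cocktail libraries, against 682, 681 and 677 FPKM in the naive libraries, a log2 fold change of -1.44 ± 0.039 (limma adjusted p = 2.25e-13). Its partner Lef1 had 25.9, 26.01 and 26.4 FPKM in cocktail and 128, 129.9 and 129 FPKM in naive libraries. The cocktail means were thus 0.367 and 0.202 of the naive means, with no overlap between libraries. Foxo1, which drives Klf2 and Il7r, stood at 23.5 FPKM in cocktail and 58.7 FPKM in naive cells, and Bach2, a repressor of effector genes, at 6.91 FPKM in cocktail and 17.02 FPKM in naive cells. Id3, a memory-associated inhibitor of E proteins, stood at 9.48 FPKM in cocktail and 43.8 FPKM in naive cells, and Satb1, a chromatin organiser, at 54.6 FPKM in cocktail and 132 FPKM in naive cells.

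Genes that guide resting cells through lymph nodes fell by different amounts. Klf2 (chr8:72319062-72321654) was at 17.7, 16.96 and 17.3 FPKM in the cocktail libraries, against 335, 344 and 341 FPKM in the naive libraries, 19.6-fold lower (log2 fold change -4.22 ± 0.018, limma adjusted p = 1.30e-21). Its target S1pr1, the receptor for exit from lymph nodes, was at 14.2, 14.1 and 13.99 FPKM in the cocktail libraries, against 175, 176 and 177 FPKM in the naive libraries, 12.5-fold lower. Ccr7, the receptor for entry into lymph nodes, was at 77.05, 75.1 and 76.3 FPKM in the cocktail libraries, against 300.4, 301 and 301 FPKM in the naive libraries, which is 3.95-fold lower. The order of loss was thus Klf2, S1pr1 and Ccr7, with no overlap between cocktail and naive libraries in any of the 3. Il7r, the receptor of a cytokine in the cocktail, was at 82.7, 83.7 and 82.5 FPKM in the cocktail libraries, against 263, 270.1 and 264 FPKM in the naive libraries. Cd27, a costimulatory receptor of naive and memory cells, was at 106 ± 0.655 FPKM in cocktail cells and 194 ± 0.913 FPKM in naive cells and missed the fold minimum, and Myb missed it in the other direction at 15.3 FPKM in cocktail and 9.59 FPKM in naive cells. Ly6c1, a surface glycoprotein of memory and effector CD8 T cells, was the single member to rise, at 309 ± 3.19 FPKM in cocktail cells and 18.6 ± 0.484 FPKM in naive cells.

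**Figure D2:**
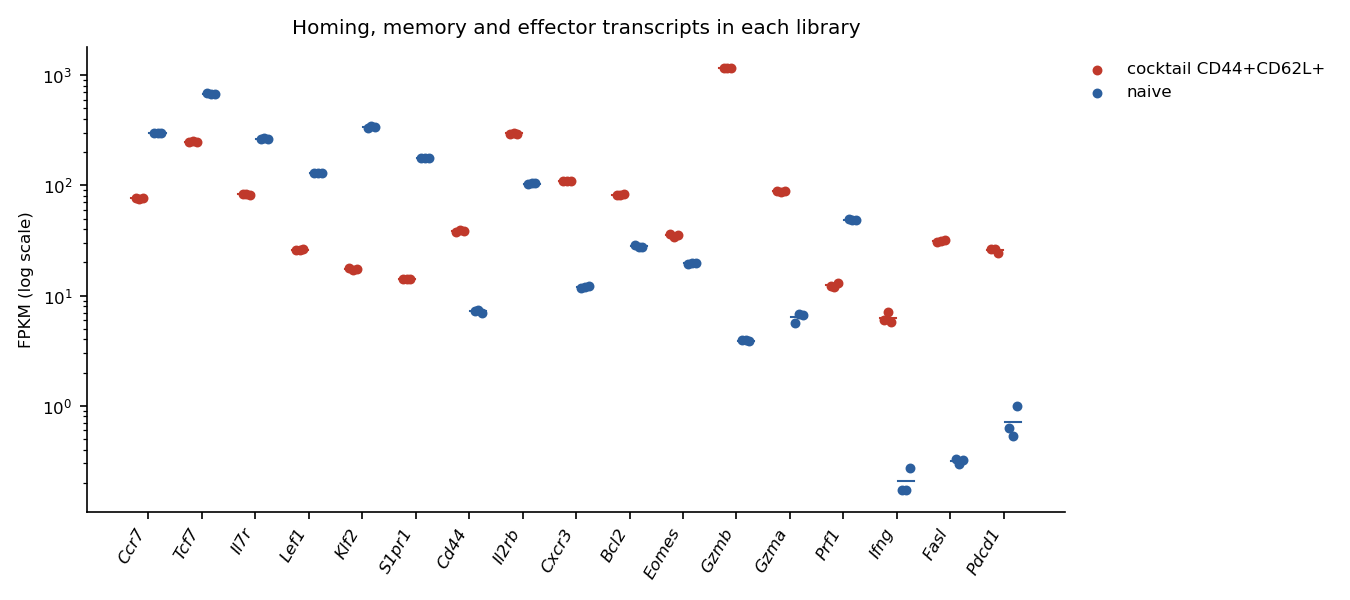
FPKM of 17 homing, memory and effector genes in each library, on a log scale, with cocktail CD44+CD62L+ cells left of naive cells; short lines mark the means. The 6 genes at the left, Ccr7 to S1pr1, together with Prf1, are lower in cocktail cells, all others are higher, and no gene has overlapping libraries.

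Compared with IL-2 CD44+CD62L- cells, which shared the length of culture but not the gate, the same list ran the other way. Of its 32 members, 18 were higher and 1 lower in the cocktail cells (median log2 difference 1.05), where 4.67% of all genes were higher and 3.49% lower. Tcf7 averaged 249.5 FPKM in cocktail cells and 2.16 FPKM in IL-2 cells, Ccr7 76.2 and 2.08 FPKM, and Dapl1, a naive and memory transcript, 88.2 and 0.247 FPKM. The lower member was Itgae, an integrin chain that binds E-cadherin, at 0.324 FPKM in cocktail and 2.31 FPKM in IL-2 cells (log2 difference -1.32). Klf2 and its target S1pr1 were not called: Klf2 was at 17.3 FPKM in cocktail and 25.4 FPKM in IL-2 cells, and S1pr1 at 14.1 and 18.4 FPKM, both below the fold minimum. Il6ra was near 0 in both, at 0.0467 and 0.0508 FPKM. This comparison and the one with naive cells share the 3 cocktail libraries.

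The CD44loCD62L+ cells of the same cocktail culture lay between these cells and naive cells for several of these genes. Klf2 was at 17.3 FPKM in the CD44+CD62L+ cells, against 52.7 FPKM in the CD44loCD62L+ cells, a log2 difference of -1.55 (limma adjusted p = 5.76e-16). The corresponding means of S1pr1 were 14.1 and 35.3 FPKM. Both passed the test, in a comparison in which 0.418% of all genes were lower and 2.26% higher. Tcf7, with 249.5 and 376 FPKM, and Ccr7, with 76.2 and 137 FPKM, were lower by less than the fold minimum.

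**Figure D3:**
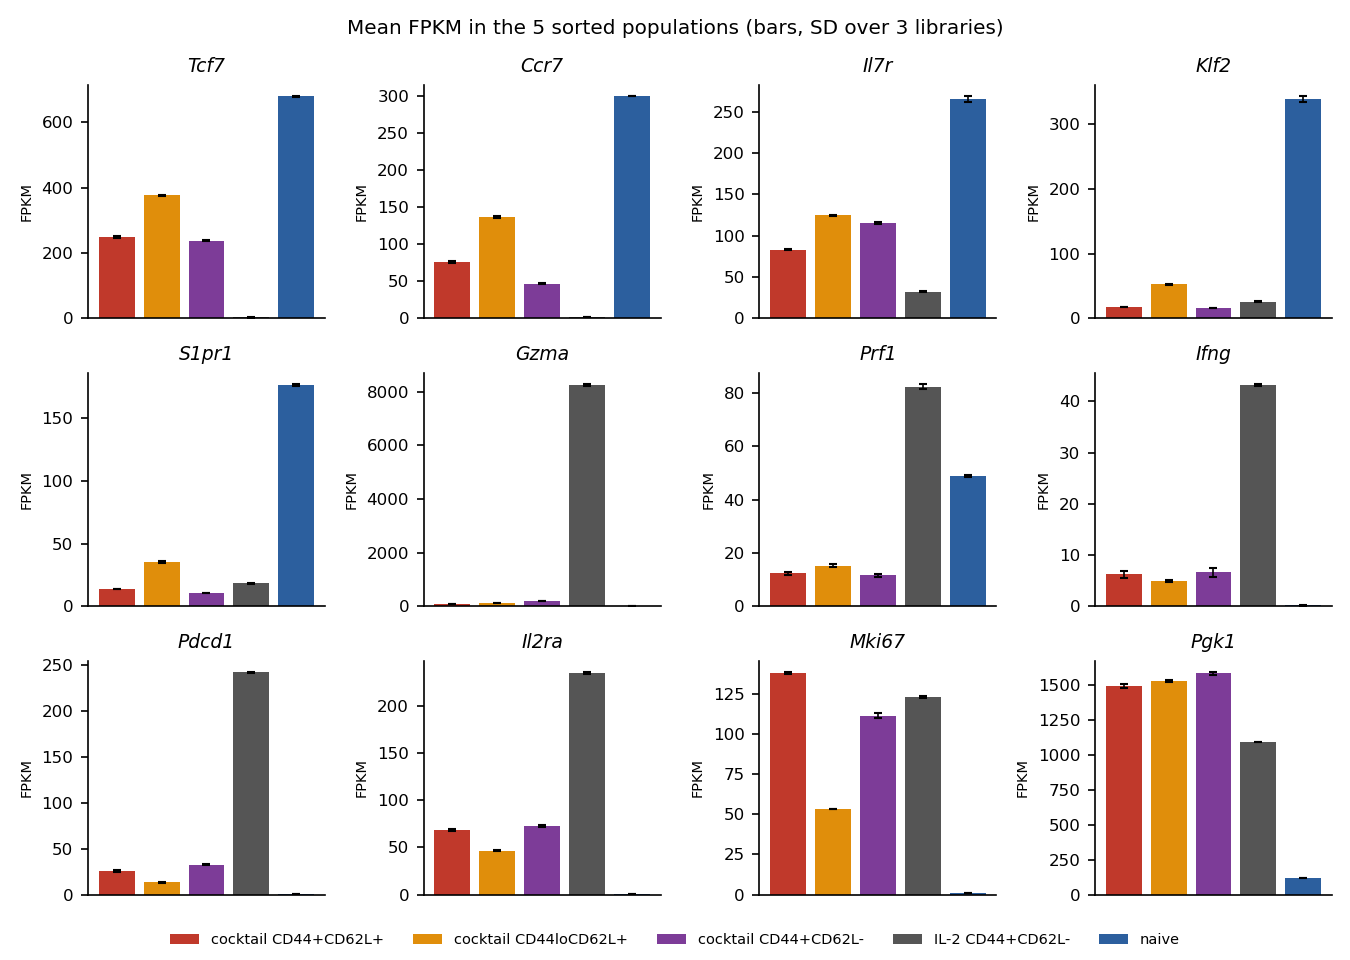
Mean FPKM of 12 genes in the 5 populations, from cocktail CD44+CD62L+ on the left to naive on the right; error bars are the SD over 3 libraries and each panel has its own axis from 0. Tcf7 and Ccr7 are at 2.16 and 2.08 FPKM in IL-2 cells and far above that in the 4 other populations, while Gzma, Prf1, Ifng and Pdcd1 are highest in IL-2 cells.

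Among transcription factors of effector and memory fate, 7 of 11 effector factors rose and 2 of 7 memory factors fell. Over all genes, 14.4% rose and 8.44% fell. With a pseudocount of 5, Bcl6 lost its call and 1 of 7 memory factors fell. Tbx21, which encodes T-bet, was at 20.5, 20.9 and 22.5 FPKM in the cocktail libraries, against 2.07, 2.50 and 2.38 FPKM in the naive libraries, 9.21-fold higher (log2 fold change 2.75 ± 0.044, limma adjusted p = 6.10e-16). Id2, like Id3 an inhibitor of E proteins, rose to 316 FPKM in cocktail cells against 36.3 FPKM in naive cells, and Irf4, induced by receptor signalling, to 18.9 against 2.39 FPKM. Bhlhe40, a factor of activated T cells, had the widest change of the list at 75.6 ± 1.13 FPKM in cocktail cells and 0.458 ± 0.102 FPKM in naive cells. Eomes, the T-box factor linked to memory, was at 36.1, 34.2 and 35.2 FPKM in the cocktail libraries, against 19.3, 19.8 and 19.8 FPKM in the naive libraries, without overlap but under the fold minimum. Prdm1, the terminal effector factor Blimp-1, was low at 1.10 FPKM in cocktail and 0.204 FPKM in naive cells, against 9.85 FPKM in IL-2 cells. Batf was at 52.3 FPKM in cocktail and 55.1 FPKM in naive cells, under the fold minimum, and Bcl6, a repressor of Prdm1, fell to 1.74 against 5.57 FPKM.

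Cytotoxic genes rose unevenly: 13 of 25 tested were higher (52%) and 1 was lower (4%), where 14.4% of all genes rose and 8.44% fell. The median log2 fold change of the 25 was 1.12. Without cocktail library 3, Gzmm, granzyme M, was a second lower gene. Gzma was at 88.6, 87.04 and 89.4 FPKM in the cocktail libraries, against 5.68, 6.76 and 6.71 FPKM in the naive libraries, 13.8-fold higher. Gzmc averaged 49.8 ± 1.49 FPKM in cocktail cells and 0.252 ± 0.0562 FPKM in naive cells, and Gzmk 2.16 ± 0.0914 FPKM in cocktail cells and 0.373 ± 0.139 FPKM in naive cells. Perforin, which forms the pore for granzymes, went the other way: Prf1 (chr10:61297751-61304684) was at 12.1, 11.9 and 13.05 FPKM in the cocktail libraries, against 49.3, 48.97 and 48.5 FPKM in the naive libraries, 3.96-fold lower (log2 fold change -1.90 ± 0.036, limma adjusted p = 4.01e-15). Fasl, the death ligand, was at 30.9, 31.5 and 32.1 FPKM in cocktail and 0.330, 0.296 and 0.319 FPKM in naive libraries. Of the receptors, Klrk1, the activating receptor NKG2D, was at 84.3 FPKM in cocktail and 6.09 FPKM in naive cells. Klrc1, the inhibitory NKG2A, was at 84.6 FPKM in cocktail and 1.34 FPKM in naive cells, and Klrd1, the partner of NKG2A, at 479 FPKM in cocktail and 220.4 FPKM in naive cells. Nkg7 and Ctsw, granule components already high in naive cells, were at 606 FPKM in cocktail and 446 FPKM in naive cells and at 313 FPKM in cocktail and 288 FPKM in naive cells, below the fold minimum. Granzymes of this family share sequence, and how reads common to several were counted is not given in the sources used here.

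Set against IL-2 CD44+CD62L- cells, 10 of the 25 cytotoxic genes were lower in cocktail cells and 2 were higher, against 3.49% and 4.67% of all genes. Gzma averaged 88.3 FPKM in cocktail cells and 8244 FPKM in IL-2 cells (limma adjusted p = 4.29e-19), and Prf1 12.3 and 82.3 FPKM (limma adjusted p = 5.15e-16). Gzmb is listed at 0 in all 3 IL-2 libraries, where Gzmc averaged 662 FPKM. Such a 0 may be an estimate that failed, since Eef1a1, an elongation factor that every cell uses, is at 0 in all 15 libraries. Gzmb is 1 of the 2 counted as higher, so that call rests on the 0, and no fold is given for it against IL-2 cells. The other is Tnfsf10, the death ligand TRAIL, at 27.8 FPKM in cocktail and 11.4 FPKM in IL-2 cells.

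Of 14 cytokine and chemokine transcripts tested, 9 rose and none fell (median log2 fold change 2.03). Over all genes, 14.4% rose and 8.44% fell. Xcl1, which attracts cross-presenting dendritic cells, was at 164, 167 and 159 FPKM in the cocktail libraries, against 3.99, 2.31 and 1.98 FPKM in the naive libraries, and Lif, an IL-6 family cytokine, at 44.6, 44.5 and 45.3 FPKM in cocktail and 0.154, 0.0855 and 0.112 FPKM in naive libraries. Ifng was at 5.94, 7.09 and 5.78 FPKM in the cocktail libraries, against 0.173, 0.170 and 0.275 FPKM in the naive libraries, a low level beside the 43.2 FPKM of IL-2 cells. Tnf stood at 27.9 FPKM in cocktail and 5.82 FPKM in naive cells, Csf2 at 10.7 FPKM in cocktail and 0.0277 FPKM in naive cells, Ccl3 at 7.14 FPKM in cocktail and 0.236 FPKM in naive cells and Ccl4 at 14.9 FPKM in cocktail and 1.01 FPKM in naive cells. Ccl5, a chemokine stored by memory cells, was lower but under the fold minimum at 38.2 ± 2.28 FPKM in cocktail cells and 59.8 ± 2.74 FPKM in naive cells. Il10 was near 0 in both, with 0.0190 FPKM in cocktail and 0.0208 FPKM in naive cells, while IL-2 cells had 16.7 FPKM. Il2, the growth factor itself, was below the test level at 0.113 FPKM in cocktail cells and was listed at 0 in naive cells.

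Of 23 cytokine receptors 9 rose (39.1%) and 5 fell (21.7%), where 14.4% of all genes rose and 8.44% fell. With a pseudocount of 5 the number that fell was 3. Il2ra, the CD25 chain that gives the IL-2 receptor high affinity, was at 67.1, 69.9 and 67.9 FPKM in the cocktail libraries, against 0.534, 0.541 and 0.456 FPKM in the naive libraries, a log2 fold change of 5.52 ± 0.022 (limma adjusted p = 7.26e-22). Il2rb, shared by the IL-2 and IL-15 receptors, was at 295, 297 and 295 FPKM in cocktail and 102, 104 and 104 FPKM in naive libraries. Il12rb2, the signalling chain for IL-12, was at 65.7 FPKM in cocktail and 1.97 FPKM in naive cells, Il18r1 at 61.5 FPKM in cocktail and 22.6 FPKM in naive cells and its partner Il18rap at 35.8 FPKM in cocktail and 3.01 FPKM in naive cells. Il2rg, the chain common to the receptors for IL-2, IL-7, IL-15 and IL-21, was at 481 FPKM in cocktail and 575 FPKM in naive cells, and Il21r at 63.3 FPKM in cocktail and 119.9 FPKM in naive cells, both below the fold minimum. The interferon-gamma receptor chains moved apart: Ifngr1 rose to 455 FPKM in cocktail cells against 144 FPKM in naive cells, and Ifngr2 fell to 3.74 against 25.9 FPKM. Tgfbr2 and Tgfbr3, receptors of TGF-beta, were lower too, at 34.4 FPKM in cocktail and 105 FPKM in naive cells and at 0.713 FPKM in cocktail and 5.67 FPKM in naive cells.

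Feedback inhibitors of cytokine signalling also parted. Cish, a STAT5 target, was at 113, 112 and 113 FPKM in the cocktail libraries, against 3.97, 4.17 and 4.28 FPKM in the naive libraries, and Socs2 at 11.4, 11.5 and 10.7 FPKM in cocktail and 0.172, 0.118 and 0.188 FPKM in naive libraries. Socs3, a STAT3 target that restrains IL-6 signalling, was at 15.7, 15.96 and 14.95 FPKM in the cocktail libraries, against 75.1, 74.9 and 74.5 FPKM in the naive libraries, 4.82-fold lower. Socs1 stood at 106 FPKM in cocktail and 53.3 FPKM in naive cells, just under the fold minimum with a log2 fold change of 0.98. Of 26 genes on this list 9 rose (34.6%) and 3 fell (11.5%), where 14.4% of all genes rose and 8.44% fell. Pim1 and Myc, both cytokine-responsive, were at 58.8 FPKM in cocktail and 56 FPKM in naive cells and at 71.7 FPKM in cocktail and 63.3 FPKM in naive cells, below the fold minimum.

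Of 14 inhibitory receptors 9 rose and 3 fell against naive cells, with a median log2 fold change of 2.43. Of 7 factors and ectoenzymes linked to exhaustion 3 rose (42.9%) and 1 fell (14.3%), with a median of -0.24. Over all genes, 14.4% rose and 8.44% fell. With a pseudocount of 5 none of the 21 was called lower. Lag3, which binds MHC class II, was at 91.1, 86.7 and 89.6 FPKM in the cocktail libraries, against 0.328, 0.399 and 0.574 FPKM in the naive libraries, and Ctla4, which competes for CD80 and CD86, at 99.3, 96.7 and 97.7 FPKM in cocktail and 0.845, 0.950 and 0.658 FPKM in naive libraries. Pdcd1, which encodes PD-1, was at 26.4, 26.4 and 24.2 FPKM in cocktail and 0.624, 0.534 and 0.998 FPKM in naive libraries. Every cocktail library exceeded every naive library in these 3 genes. Tigit was at 36.3 FPKM in cocktail and 1.08 FPKM in naive cells and Havcr2, which encodes TIM-3, at 7.44 FPKM in cocktail and 0.114 FPKM in naive cells. Btla, an inhibitory receptor of resting lymphocytes, fell to 14.3 FPKM in cocktail cells against 30.4 FPKM in naive cells, and Tox, a factor linked to exhaustion, to 8.26 against 20.6 FPKM.

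Against IL-2 cells, 5 of the 14 receptors were lower in cocktail cells and 2 higher, and of the 7 factors and ectoenzymes 1 was lower and 1 higher. In that comparison 3.49% of all genes were lower and 4.67% higher. Pdcd1 averaged 25.6 FPKM in cocktail and 242 FPKM in IL-2 cells (log2 difference -3.19, limma adjusted p = 9.22e-14). Havcr2 was at 7.44 and 73.5 FPKM, Tigit at 36.3 and 108 FPKM, and Ctla4 at 97.9 and 200.2 FPKM. Lag3, by contrast, was at 89.2 FPKM in cocktail and 95.5 FPKM in IL-2 cells, below the fold minimum. Costimulatory genes of the TNF and CD28 families were higher than in naive cells in 11 of 20 cases and lower in 1. Over all genes, 14.4% were higher and 8.44% lower than in naive cells. Tnfrsf9, the receptor 4-1BB, was at 74.3 FPKM in cocktail and 2.12 FPKM in naive cells, Tnfrsf18, the receptor GITR, at 179.9 FPKM in cocktail and 36.7 FPKM in naive cells, and Tnfsf4, the OX40 ligand, at 21.4 FPKM in cocktail and 0.0407 FPKM in naive cells. Cd80, itself a ligand of CD28, was at 21.7 FPKM in cocktail and 0.0617 FPKM in naive cells. Cd40lg, a CD4-associated ligand, was the member that fell, to 1.18 FPKM in cocktail cells against 7.80 FPKM in naive cells.

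Of 26 chemokine receptors, integrins and other homing genes, 10 rose (38.5%) and 4 fell (15.4%), where 14.4% of all genes rose and 8.44% fell. With a pseudocount of 5 the number that fell was 2. Cxcr3, the receptor for interferon-induced chemokines, was at 109.8, 110.3 and 110.1 FPKM in the cocktail libraries, against 11.8, 11.98 and 12.2 FPKM in the naive libraries. Ccr2, a receptor of inflammatory chemokines, was at 93.8 FPKM in cocktail and 0.684 FPKM in naive cells. Cxcr4, the receptor for the bone marrow chemokine CXCL12, fell to 18.5 FPKM in cocktail cells against 117 FPKM in naive cells, and Cxcr5, the follicle-homing receptor, to 0.652 against 4.59 FPKM. Cd69, an early activation antigen, was lower as well, at 38.3 FPKM in cocktail and 109 FPKM in naive cells. Ly6a, also called Sca-1, was at 1513, 1489.8 and 1501 FPKM in the cocktail libraries, against 84.6, 85.5 and 82.7 FPKM in the naive libraries and Ly6c2 at 622 FPKM in cocktail and 84.1 FPKM in naive cells. Ly6c1 and Ly6c2 are near-identical copies, so their values are uncertain. Among integrins, Itgb1 rose to 82.2 against 21.5 FPKM, and Itga4, Itgal and Itgb7 stayed below the fold minimum. Klrg1, Cx3cr1 and S1pr5, markers of terminal effector cells, were below the test level at 0.0180, 0.0923 and 0.00919 FPKM in cocktail cells and 0.0987, 0.176 and 0.291 FPKM in naive cells.

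Mitosis genes had the largest median change of all the lists. Of 44 mitosis genes 43 rose, and of 40 genes of DNA replication and S phase 37 rose, with none fallen in either list. Their median log2 fold changes were 4.72 and 2.42, beside -0.0043 over all genes, of which 14.4% rose and 8.44% fell. The summed level of the 44 mitosis genes ran from 3388 to 3406 FPKM in cocktail libraries and from 135 to 140.1 FPKM in naive libraries. The difference is shown with promoters because genes of mitosis and of S phase are known to carry different control elements: the CHR (cell cycle genes homology region) and CCAAT boxes at mitosis genes, and E2F sites at S phase genes.

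Promoter sequences are from RefSeq on GRCm38.p6, written 5′ to 3′ on the strand of the gene. Capitals mark the CHR element TTTGAA or the CCAAT box, read on either strand, in these promoters of called mitosis genes. The windows were chr2:164769809-164769978, plus strand for Ube2c, chr9:70421505-70421804, minus strand for Ccnb2 and chr7:135716330-135716499, minus strand for Mki67.
Ube2c: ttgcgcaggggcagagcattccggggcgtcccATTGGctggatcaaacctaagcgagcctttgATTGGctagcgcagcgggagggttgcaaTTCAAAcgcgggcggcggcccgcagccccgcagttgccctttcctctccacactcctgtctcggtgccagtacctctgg
Ccnb2: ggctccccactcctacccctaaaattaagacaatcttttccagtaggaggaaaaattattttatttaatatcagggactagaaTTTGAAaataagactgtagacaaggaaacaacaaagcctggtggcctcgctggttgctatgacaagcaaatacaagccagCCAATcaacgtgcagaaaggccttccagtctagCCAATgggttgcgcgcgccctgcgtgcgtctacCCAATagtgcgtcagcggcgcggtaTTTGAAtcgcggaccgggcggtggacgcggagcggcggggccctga
Mki67: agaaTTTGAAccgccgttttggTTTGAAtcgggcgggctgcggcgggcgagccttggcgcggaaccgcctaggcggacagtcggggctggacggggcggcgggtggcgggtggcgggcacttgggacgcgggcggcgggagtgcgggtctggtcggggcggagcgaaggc
Ube2c encodes a ubiquitin-conjugating enzyme of the anaphase-promoting complex, Ccnb2 encodes cyclin B2, and Mki67 the proliferation antigen Ki-67. Of the 36 mitosis genes with a promoter in the reference, 25 (69.4%) held TTTGAA in the 300 bases around the start, against 4 of 34 S phase genes (11.8%), 11.9% of the 8009 promoters of tested genes and 18.1% of all 27025 promoters. CCAAT was in 27 of the 36 (75%), in 21 of the 34 (61.8%), in 39.8% of promoters of tested genes and in 37.9% of all promoters. Among promoters of all genes called higher, 18.3% held TTTGAA, and among those called lower 8.86%. These shares are descriptions of letters in a window, and no test was made of them.

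The values of these genes separated the populations widely. Ube2c was at 243, 242 and 242 FPKM in the cocktail libraries, against 1.05, 1.55 and 1.23 FPKM in the naive libraries, 189-fold higher (log2 fold change 6.74 ± 0.057, limma adjusted p = 8.08e-19). Ccnb2 was at 151, 156 and 153 FPKM in cocktail and 1.20, 1.46 and 0.953 FPKM in naive libraries, and Mki67 (chr7:135689784-135716450) at 137, 137 and 138 FPKM in cocktail and 1.27, 1.26 and 1.20 FPKM in naive libraries. None of the naive libraries exceeded 2 FPKM in any of these 3 genes. Of mitotic kinases, Cdk1, which drives entry into mitosis, was at 62.2 FPKM in cocktail and 0.432 FPKM in naive cells, Plk1 at 86.5 FPKM in cocktail and 1.47 FPKM in naive cells and Aurkb, of the chromosomal passenger complex, at 98.5 FPKM in cocktail and 0.439 FPKM in naive cells. Its partner Birc5 was at 250.3 FPKM in cocktail and 1.84 FPKM in naive cells, Cdc20, an activator of the anaphase-promoting complex, at 119 FPKM in cocktail and 3.12 FPKM in naive cells, and Top2a, which disentangles chromosomes, at 285 ± 0.562 FPKM in cocktail cells and 3.24 ± 0.274 FPKM in naive cells. By role, all 12 kinases and cyclins and all 19 spindle and kinetochore genes rose. The exception among the 44 was Pttg1, securin, at 39.05 ± 0.388 FPKM in cocktail cells and 38.99 ± 2.12 FPKM in naive cells.

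S phase genes showed a narrower range. The E2F site searched was TTTCCCGC on either strand, marked by capitals in the promoters of Rfc3 (chr5:151651159-151651328, minus strand), a clamp loader subunit, and Mcm3 (chr1:20820263-20820432, minus strand), a subunit of the replicative helicase.
Rfc3: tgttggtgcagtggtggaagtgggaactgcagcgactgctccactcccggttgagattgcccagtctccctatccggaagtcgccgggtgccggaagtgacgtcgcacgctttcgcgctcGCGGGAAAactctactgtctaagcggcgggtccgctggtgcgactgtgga
Mcm3: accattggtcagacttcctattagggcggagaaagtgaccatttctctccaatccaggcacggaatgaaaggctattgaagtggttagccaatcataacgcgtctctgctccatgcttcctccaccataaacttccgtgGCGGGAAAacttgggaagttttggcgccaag
It was present in 5 of 34 S phase promoters (14.7%), in none of the 36 mitosis promoters, in 2.26% of promoters of tested genes and in 1.11% of all promoters. The nucleotide supply genes moved most, with all 7 risen. Rrm2, the regulated subunit of ribonucleotide reductase, was at 161, 165 and 160.5 FPKM in the cocktail libraries, against 1.77, 1.94 and 1.92 FPKM in the naive libraries, and Tk1, thymidine kinase, at 109, 109 and 110.2 FPKM in cocktail and 1.04, 1.06 and 1.18 FPKM in naive libraries. Pcna, the sliding clamp, was at 460.4 FPKM in cocktail and 158 FPKM in naive cells, well above 0 in both. Mcm2, of the helicase, was at 68.7 FPKM in cocktail and 24.3 FPKM in naive cells, Cdc6, which loads it, at 14.3 FPKM in cocktail and 0.358 FPKM in naive cells and E2f1 at 22 FPKM in cocktail and 1.98 FPKM in naive cells. Cdt1, Cdc25a and Rpa1 were the 3 members below the fold minimum, with log2 fold changes of 0.92, 0.70 and 0.37.

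Cocktail cells also stood above the CD44loCD62L+ cells of their own culture in these lists. Against them, 41 of 44 mitosis genes and 21 of 40 S phase genes were higher and none lower (median log2 differences 1.60 and 1.02), where 2.26% of all genes were higher. Ccnb1, cyclin B1, averaged 88.1 FPKM in CD44+CD62L+ and 21.6 FPKM in CD44loCD62L+ cells (limma adjusted p = 2.11e-15), and Mki67 138 and 53.2 FPKM. Against IL-2 CD44+CD62L- cells the mitosis list showed 1 gene higher and none lower, where 4.67% of all genes were higher and 3.49% lower. Its median log2 difference was 0.20. The 1 higher gene was Cdc25b, a phosphatase that activates Cdk1, at 123 FPKM in cocktail and 48.6 FPKM in IL-2 cells. Mki67 was at 123 FPKM in IL-2 cells and Cdk1 at 60.6 FPKM.

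Inhibitors of the cell cycle rose beside its kinases. Of 13 cyclins, kinases and inhibitors tested 9 rose and none fell. Cdkn1a, the inhibitor p21, was at 41.5, 42.3 and 41.6 FPKM in cocktail and 0.0814, 0.0601 and 0.0202 FPKM in naive libraries, and Cdkn2a, the locus of p16 and p19Arf, at 21.9, 17.6 and 18.8 FPKM in cocktail and 0, 0.1002 and 0.143 FPKM in naive libraries. Cdk4 and Cdk6, partners of D cyclins, were at 215 FPKM in cocktail and 88.3 FPKM in naive cells and at 15.1 FPKM in cocktail and 3.55 FPKM in naive cells. The D cyclins themselves missed the fold minimum, Ccnd2 at 93.2 FPKM in cocktail and 129 FPKM in naive cells and Ccnd3 at 148 FPKM in cocktail and 106 FPKM in naive cells, and Ccnd1 was below the test level. Of 23 quiescence genes 6 fell (26.1%) and 1 rose (4.35%), where 8.44% of all genes fell and 14.4% rose. Tsc22d3, the glucocorticoid-induced GILZ, was at 19.3, 20.2 and 19.4 FPKM in the cocktail libraries, against 229, 227 and 230.3 FPKM in the naive libraries, and Btg1, an antiproliferative gene, at 36.7, 36.9 and 35.99 FPKM in cocktail and 236, 238 and 235 FPKM in naive libraries. Btg2 and Tob1, of the same family, were also lower, at 24.3 FPKM in cocktail and 83.7 FPKM in naive cells and at 6.14 FPKM in cocktail and 24.7 FPKM in naive cells. Cdkn1b, the inhibitor p27, stood at 46.1 FPKM in cocktail and 74.9 FPKM in naive cells, under the fold minimum, and the 1 that rose was Cdkn2c, p18, at 45.7 FPKM in cocktail and 3.01 FPKM in naive cells.

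Of 25 genes of DNA methylation, Polycomb and other chromatin functions 11 rose (44%) and 3 fell (12%), where 14.4% of all genes rose and 8.44% fell. The 3 were Tet1, Tet3 and Kdm6b, while Tet2 was at 5.01 FPKM in cocktail and 6.61 FPKM in naive cells, under the fold minimum. Uhrf1, which directs maintenance methylation, was at 105 ± 1.30 FPKM in cocktail cells and 4.67 ± 0.145 FPKM in naive cells, and Dnmt1, the maintenance methyltransferase, at 98.3 FPKM in cocktail and 40.8 FPKM in naive cells. Dnmt3a, the de novo enzyme, was at 10.9 FPKM in cocktail and 13.7 FPKM in naive cells, under the fold minimum. Ezh2, the methyltransferase of Polycomb complex 2, was at 84.1, 83.6 and 83.9 FPKM in the cocktail libraries, against 9.49, 9.88 and 10.3 FPKM in the naive libraries, while its homologue Ezh1 stood at 20.1 FPKM in cocktail and 27.02 FPKM in naive cells, under the fold minimum. Tet3, a methylcytosine oxidase, fell to 9.85 FPKM in cocktail cells against 25.7 FPKM in naive cells, and Kdm6b, an H3K27 demethylase, to 3.20 against 19.7 FPKM. Hmgb2, Lmnb1 and H2afz, chromatin and lamina components, were among the 8 of 8 other chromatin genes that rose.

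Glycolysis genes, whose pathway the cocktail component 2-deoxyglucose blocks, rose together. Of 24 genes of glycolysis and glucose uptake 17 rose and none fell, where 14.4% of all genes rose and 8.44% fell. The median log2 fold change of the 24 was 1.98. Their sum was 14340 to 14390 FPKM in cocktail libraries and 2090 to 2094 FPKM in naive libraries. Pgk1, phosphoglycerate kinase, was at 1479, 1504 and 1493 FPKM in the cocktail libraries, against 116, 118 and 119.9 FPKM in the naive libraries, 12.6-fold higher (log2 fold change 3.65 ± 0.0095, limma adjusted p = 8.70e-24). Tpi1, triosephosphate isomerase, was at 774, 776 and 773 FPKM in cocktail and 28.4, 29.01 and 29.1 FPKM in naive libraries. Both glucose transporters rose, Slc2a1 to 62.2 FPKM in cocktail against 15.9 FPKM in naive cells and Slc2a3 to 61.4 against 17.9 FPKM. Hk2, the inducible hexokinase, was at 11.4 FPKM in cocktail and 0.439 FPKM in naive cells, while the constitutive Hk1 was at 86.5 FPKM in cocktail and 44.4 FPKM in naive cells, under the fold minimum. At the exit of the pathway, Ldha was at 1520.0 FPKM in cocktail and 386 FPKM in naive cells and the lactate exporter Slc16a3 at 93.5 ± 1.58 FPKM in cocktail cells and 0.799 ± 0.105 FPKM in naive cells. Pdk1, which limits entry of pyruvate into mitochondria, was at 49.2 FPKM in cocktail and 59.95 FPKM in naive cells, under the fold minimum.

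Targets of hypoxia-inducible factor outside glycolysis rose in 11 of 16 cases and fell in none, where 14.4% of all genes rose and 8.44% fell. Bnip3, a mitophagy receptor, was at 90.5, 92.8 and 93.8 FPKM in cocktail and 2.46, 2.60 and 3.37 FPKM in naive libraries, and Vegfa, the angiogenic factor, at 14.4, 14.9 and 14.5 FPKM in cocktail and 0.0889, 0.157 and 0.118 FPKM in naive libraries. Egln3, an oxygen sensor, was at 20.6 FPKM in cocktail and 3.22 FPKM in naive cells. Against IL-2 cells 7 of the 16 were higher and none lower, where 4.67% of all genes were higher and 3.49% lower. Vegfa averaged 14.6 FPKM in cocktail and 1.46 FPKM in IL-2 cells, and Stc2, a secreted glycoprotein, 24.96 and 5.54 FPKM. Oxygen in the cultures is not given in the sources used here.

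Few mitochondrial genes were called. Of 38 subunits of oxidative phosphorylation 1 rose and 1 fell (2.63% each), with a median log2 fold change of 0.40 and 36 values above 0. Without cocktail library 1 or without naive library 1, Sdhd, of complex II, was a second riser. The riser was Cox5b, of complex IV, at 360.2 ± 2.79 FPKM in cocktail cells and 172 ± 4.46 FPKM in naive cells, a call lost under quantile normalization, and the other was Ndufa4 at 139.7 ± 3.11 FPKM in cocktail cells and 290.5 ± 4.25 FPKM in naive cells. Among 26 genes of fatty acid oxidation and lipid catabolism 3 rose (11.5%) and 1 fell (3.85%), with a median of 0.14. The shares over all genes were 14.4% and 8.44%, so these counts do not set the list apart. Of the 26, 2 fell without cocktail library 3 or without naive library 2. The call of Acsl4, an acyl-CoA synthetase, was lost without naive library 3, at a log2 fold change of 0.99. Cpt1a, which admits long-chain fatty acids to mitochondria, was at 18.1, 18.4 and 18.6 FPKM in cocktail and 18.2, 18.5 and 17.96 FPKM in naive libraries, where the libraries of the populations overlapped. Acadl, a long-chain dehydrogenase, had the largest rise of the list, at 119 FPKM in cocktail and 21.5 FPKM in naive cells, while Acadm, the medium-chain enzyme, was at 23.3 FPKM in cocktail and 37.1 FPKM in naive cells, under the fold minimum. Lipa, the lysosomal lipase linked to memory T cell metabolism, fell to 22.9 FPKM in cocktail cells against 55.6 FPKM in naive cells.

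Sterol and lipid synthesis genes rose in 15 of 30 cases and fell in none, where 14.4% of all genes rose and 8.44% fell. The median log2 fold change of the 30 was 0.97. Sqle, squalene epoxidase, was at 28, 28.8 and 27.1 FPKM in cocktail and 3.10, 3.05 and 3.11 FPKM in naive libraries. Scd2, a fatty acid desaturase, was at 93.8 FPKM in cocktail and 11.3 FPKM in naive cells. Fasn, fatty acid synthase, was at 36.2 FPKM in cocktail and 29.3 FPKM in naive cells, under the fold minimum. By role 12 of 19 sterol genes rose, against 3 of 11 genes of uptake, regulation and fatty acid synthesis.

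Amino acid genes rose in 12 of 25 cases and fell in none. Asns, asparagine synthetase, is a target of the stress factor ATF4, and its promoter (chr6:7693160-7693329, minus strand) is shown with the response element TGATGNAA, read on either strand, in capitals.
Asns: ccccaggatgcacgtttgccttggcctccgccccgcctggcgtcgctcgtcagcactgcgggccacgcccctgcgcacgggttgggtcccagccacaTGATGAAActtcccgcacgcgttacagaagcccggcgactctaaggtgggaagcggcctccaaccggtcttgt
That element was present in 6 of 21 promoters of this list (28.6%), in 2.21% of promoters of tested genes and in 4.06% of all promoters. Asns was at 40.9, 39.95 and 39.8 FPKM in the cocktail libraries, against 0.121, 0.119 and 0.0999 FPKM in the naive libraries, close to 0 in all naive libraries (log2 fold change 5.21 ± 0.031, limma adjusted p = 2.07e-20). Trib3, also an ATF4 target, was at 14.2 FPKM in cocktail and 1.13 FPKM in naive cells, and Psat1, of serine synthesis, at 87.01 FPKM in cocktail and 16.3 FPKM in naive cells. Slc7a5, the large neutral amino acid transporter, was at 78.5, 77.2 and 76.9 FPKM in cocktail and 16.1, 16.4 and 17.1 FPKM in naive libraries, while its partner Slc3a2 was at 67.3 FPKM in cocktail and 47.03 FPKM in naive cells, under the fold minimum. Atf4 itself was at 124 FPKM in cocktail and 88.3 FPKM in naive cells, also under it. Among 20 endoplasmic reticulum genes 3 rose and 1 fell, near the 14.4% and 8.44% of all genes. The risers were Sdf2l1, Atf6 and Xbp1, and the chaperone Hspa5 stood at 205 FPKM in cocktail and 160.0 FPKM in naive cells.

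Myc and ribosome genes were not called in either direction. None of 28 Myc and ribosome biogenesis genes and none of 40 cytosolic ribosomal protein genes was called, with median log2 fold changes of -0.23 and -0.37. Rps27, of the small ribosomal subunit, passed the fold minimum at a log2 fold change of -1.12 but not the adjusted p. Myc was at 72.8, 70.98 and 71.4 FPKM in cocktail and 62.7, 61.8 and 65.5 FPKM in naive libraries. Npm1, nucleophosmin, was at 1397 FPKM in cocktail and 816 FPKM in naive cells and Ncl, nucleolin, at 145 FPKM in cocktail and 73.5 FPKM in naive cells. Against IL-2 cells 3 of the 28 Myc and ribosome biogenesis genes were lower in cocktail cells and none higher, where 3.49% of all genes were lower and 4.67% higher. Among the 3 was Bop1, of ribosome assembly, at 31.2 FPKM in cocktail and 64.3 FPKM in IL-2 cells.

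Interferon response genes rose in 18 of 34 cases (52.9%) and fell in 2 (5.88%), where 14.4% of all genes rose and 8.44% fell. The median log2 fold change of the 34 was 1.04. Ifitm2 and Ifitm1, membrane proteins that restrict viral entry, were at 86.3 FPKM in cocktail and 1.20 FPKM in naive cells and at 26.3 FPKM in cocktail and 0.887 FPKM in naive cells. Mx1, an antiviral GTPase, was at 72.2, 70.6 and 71.6 FPKM in the cocktail libraries, against 7.46, 7.49 and 7.86 FPKM in the naive libraries, and Isg15, a ubiquitin-like modifier, at 108 FPKM in cocktail and 41.5 FPKM in naive cells. Of the transcription factors of the response, Irf7 was at 147 FPKM in cocktail and 91.97 FPKM in naive cells and Irf9 at 71.02 FPKM in cocktail and 71.5 FPKM in naive cells, under the fold minimum, and Irf1 fell to 113 FPKM in cocktail cells against 241 FPKM in naive cells. Ifit1 and Ifit3, classical early targets, were at 26.3 FPKM in cocktail and 28.7 FPKM in naive cells and at 35.5 FPKM in cocktail and 25.01 FPKM in naive cells, also under it. The interferon-stimulated response element, searched as GAAANNGAA on either strand, was in 14 of 24 promoters of this list (58.3%), in 7.37% of promoters of tested genes and in 8.57% of all promoters.

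The interferon-inducible GTPases held that element in all 9 promoters found. Gbp3 is shown (chr3:142559924-142560093, plus strand) with its overlapping matches in capitals.
Gbp3: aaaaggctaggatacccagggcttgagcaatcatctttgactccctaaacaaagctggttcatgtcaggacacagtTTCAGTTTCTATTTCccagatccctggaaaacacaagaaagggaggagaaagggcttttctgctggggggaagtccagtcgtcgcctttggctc
Of 15 such GTPases 4 rose (26.7%) and 1 fell (6.67%) against naive cells, where 14.4% of all genes rose and 8.44% fell. Their median log2 fold change was 0.37. Iigp1, which attacks the vacuoles of pathogens, was at 75.8, 76.3 and 76.2 FPKM in the cocktail libraries, against 10.2, 9.58 and 9.76 FPKM in the naive libraries. Gbp2 stood at 141 FPKM in cocktail and 83.4 FPKM in naive cells, under the fold minimum. Against IL-2 cells, 11 of the 15 were higher and none lower (median log2 difference 1.37), where 4.67% of all genes were higher and 3.49% lower. Iigp1 averaged 76.1 FPKM in cocktail and 2.07 FPKM in IL-2 cells, and Gbp2 141 and 16.1 FPKM. Tgtp1, the member that fell, is a near-identical copy of Tgtp2, and the split of reads between them is uncertain. Class I presentation genes were high in both populations, and 2 of 13 rose (15.4%, near the 14.4% of all genes): Psmb9, an immunoproteasome subunit, at 469 FPKM in cocktail and 183 FPKM in naive cells and the peptide transporter Tap1 at 295 FPKM in cocktail and 146 FPKM in naive cells, the second a call lost under quantile normalization. B2m was at 4971 FPKM in cocktail and 4356 FPKM in naive cells.

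Antiapoptotic genes of the Bcl2 family rose in 4 of 5 cases and fell in 1. Bcl2, which IL-7 maintains, was at 81.8, 81.7 and 83.6 FPKM in the cocktail libraries, against 28.7, 27.9 and 27.4 FPKM in the naive libraries, 2.94-fold higher (log2 fold change 1.52 ± 0.016, limma adjusted p = 9.75e-18). Bcl2l1, which encodes Bcl-xL, was at 20.4 FPKM in cocktail and 4.84 FPKM in naive cells, and Mcl1 fell to 103 FPKM in cocktail cells against 221 FPKM in naive cells. Of the proapoptotic genes, Bbc3, which encodes Puma, fell to 8.18 against 39.5 FPKM, and Bcl2l11, which encodes Bim, was at 42.4 FPKM in cocktail and 21.02 FPKM in naive cells, just under the fold minimum. In all, 5 of 14 family members rose (35.7%) and 2 fell (14.3%), where 14.4% of all genes rose and 8.44% fell. Bcl2a1b and Bcl2a1d are near-identical copies, and their values are uncertain. Bcl2 was also higher than in IL-2 cells, which had 25.9 FPKM (limma adjusted p = 2.57e-17).

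Immediate early genes, which rise within minutes of a stimulus or of tissue handling, went both ways: 5 of 23 rose and 5 fell. That is 21.7% each way, beside 14.4% of all genes higher and 8.44% lower. With a pseudocount of 5 the number that rose was 2. Fos was at 13.1, 12.9 and 13.7 FPKM in the cocktail libraries, against 64.7, 63.4 and 64.95 FPKM in the naive libraries, and Zfp36, which destabilises cytokine messages, at 23.9, 23.9 and 22.5 FPKM in cocktail and 180.0, 175 and 177 FPKM in naive libraries. Nfkbia, the NF-kappaB inhibitor, was lower as well, at 45.1 FPKM in cocktail and 149 FPKM in naive cells. Batf3 rose to 13.52 FPKM in cocktail cells against 0.136 FPKM in naive cells. Egr1 was at 13.3 FPKM in cocktail and 16.01 FPKM in naive cells and Nr4a1 at 4.38 FPKM in cocktail and 8.41 FPKM in naive cells, under the fold minimum.

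Genes of the beta-catenin pathway, whose GSK3 step TWS119 inhibits, fell in 8 of 18 cases and rose in 1. Over all genes, 8.44% fell and 14.4% rose. The median log2 fold change of the 18 was -0.76. With a pseudocount of 5 the number that fell was 4. Axin2, a direct target and feedback inhibitor of the pathway, was at 1.98, 1.99 and 2.07 FPKM in the cocktail libraries, against 11.1, 11.2 and 10.8 FPKM in the naive libraries, 5.48-fold lower (log2 fold change -1.998 ± 0.038, limma adjusted p = 4.12e-15). Beta-catenin itself, Ctnnb1, was at 81.4 FPKM in cocktail and 105 FPKM in naive cells, and the kinases Gsk3a and Gsk3b were at 45.1 FPKM in cocktail and 47.4 FPKM in naive cells and at 10.6 FPKM in cocktail and 15.8 FPKM in naive cells, all 3 under the fold minimum. Tle1, a corepressor, was at 0.239 FPKM in cocktail and 5.05 FPKM in naive cells. Tcf7 and Lef1 are among the 7 targets tested and are also counted in the naive and central memory list. Against IL-2 cells, 4 of the 7 targets were higher in cocktail cells and none lower. Of the 11 pathway components 2 were lower and none higher, where 4.67% of all genes were higher and 3.49% lower. Axin2 was not called in that comparison, at 2.02 FPKM in cocktail and 1.30 FPKM in IL-2 cells, under the fold minimum. The targets Sp5, Lgr5, Nkd1 and Notum were below the test level. The TCF site, searched as CTTTGAT on either strand, was in 0 of 11 promoters of this list. It was in 2.31% of promoters of tested genes and in 3.72% of all promoters. Transcript levels do not measure beta-catenin protein.

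Of 15 listed S100 proteins, annexins and galectins 11 rose and none fell: 6 of 6 S100 proteins, 3 of 5 annexins and 2 of 4 galectins. Their median log2 fold change was 2.76, and over all genes 14.4% rose and 8.44% fell. The S100 proteins S100a8 and S100a9, counted above with the neutrophil transcripts, are outside this list and fell, with log2 fold changes of -2.11 and -2.84. Lgals1, galectin-1, was at 1754, 1756 and 1769 FPKM in the cocktail libraries, against 52.5, 52.6 and 51.7 FPKM in the naive libraries, 33.6-fold higher. S100a4 and S100a6, calcium-binding proteins of motile and memory cells, were at 191, 186 and 185 FPKM in cocktail and 4.51, 4.20 and 4.23 FPKM in naive libraries and at 272, 271 and 266 FPKM in cocktail and 4.87, 5.99 and 5.44 FPKM in naive libraries. Anxa2, annexin A2, was at 306 FPKM in cocktail and 9.04 FPKM in naive cells. Against IL-2 cells 4 of the 15 were lower in cocktail cells and none higher, where 3.49% of all genes were lower and 4.67% higher. S100a4 averaged 187 FPKM in cocktail and 2024 FPKM in IL-2 cells, and Lgals3 75.1 and 297 FPKM.

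**Figure D4:**
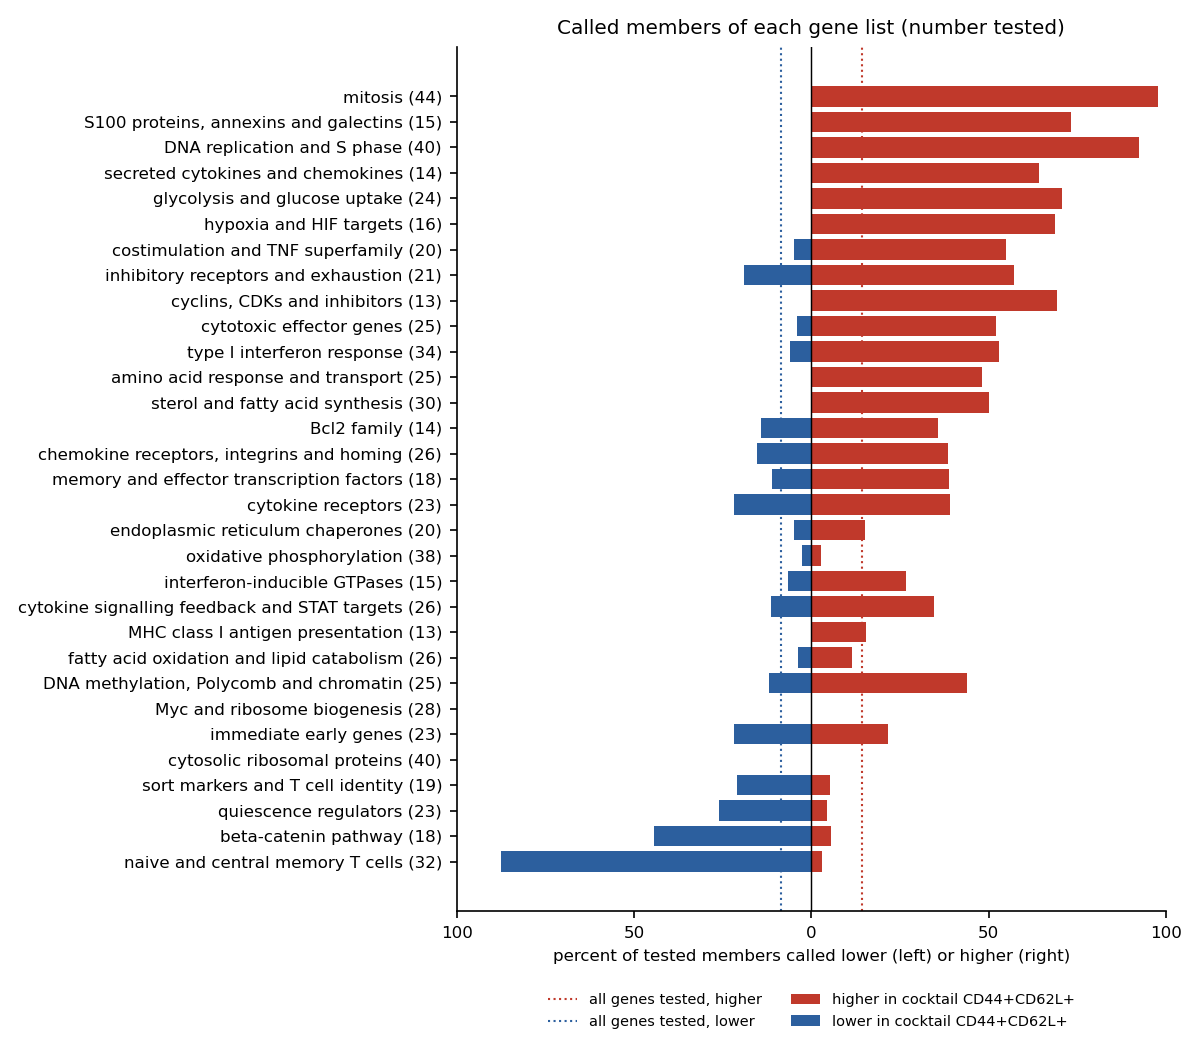
Percent of the tested members of each gene list called higher (right) or lower (left) in cocktail CD44+CD62L+ cells than in naive cells, with lists ordered by median log2 fold change and marker lists of other cells left out. Dotted lines give the same over all genes tested, 14.4% higher and 8.44% lower; mitosis lies at the top, naive and central memory T cells at the bottom, and Myc and ribosomal protein lists have no bar.

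Of the called genes, 46 were listed at 0 throughout a population, 35 in naive and 11 in cocktail cells, and no fold is given for them. Igfbp7, a secreted growth factor binding protein, was at 13.54, 14.2 and 14.6 FPKM in cocktail libraries and listed at 0 in naive libraries. Cd70, the ligand of CD27, was at 2.43, 2.79 and 2.13 FPKM in cocktail libraries and at 0 in naive libraries. Those listed at 0 in cocktail cells included the B cell genes Ms4a1, Pax5, Blk and Fcrla, and the neutrophil gene Camp. These genes were chosen after their values were seen.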

How the data were processed

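RNA was extracted with the PicoPure kit and made into Illumina libraries, per the labels' protocols. The submitters' processing notes name TopHat2 2.0.9, Cuffdiff 2.1.1 and mm10. FPKM values were computed by the authors and deposited in 1 table of 23284 genes; how strand was handled and which annotation was used is not stated in the sources used here. An FPKM does not carry its depth: only 32.9% of 17444 ratios between low values came within 0.05 of whole multiples (10% by chance), so read counts were not recovered. Libraries were grouped by their labels.

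A gene was tested if any of the 5 populations averaged 1 FPKM or more, which left 11242, and 6039 genes were at 0 in all libraries. The limma package (3.58.1, R 4.3.3) fitted log2(FPKM + 1) of the 15 libraries by population, with no other term, and eBayes used a trended prior variance. Calls needed a Benjamini-Hochberg adjusted p under 0.05 across the genes tested and a log2 fold change of 1 or more in either direction. There were 3 comparisons. With 3 libraries a side, 0.1 is the smallest two-sided p of an exact permutation test on 1 gene. The fit was checked on simulated data.

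The members, the gene lists and the tests were chosen with earlier results of these data known, and lists are described by counts and medians with no test of a list. Named genes were the 15 highest and 15 lowest called genes whose higher population averaged 10 FPKM or more and whose libraries did not overlap, without predicted genes, Rik and LOC entries, small RNAs and receptor segments, and, from each list, its key genes with up to 3 highest and 3 lowest members of at least 5 FPKM. Promoters are the RefSeq windows of 250 bases before to 50 after the start, on GRCm38.p6, and 170 or 300 bases are printed. Gene spans are from the RefSeq gene table of the same build, the assembly that mm10 denotes. Alternatives were other pseudocounts, filters, scalings and fold minimums, a fit to 6 libraries, no variance trend, a block for the replicate number, and fits without genes listed at 0, without small RNA genes and without each library. Some listed genes are counted in their lists and are not reported here by name. Figures were drawn with matplotlib 3.10.9.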

Additional observations from a re-analysis of the deposited data

Results flagged for a closer look

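Of 230 key genes tested, 21 had an effect against naive cells that differed between the cocktail CD44+CD62L+ and the cocktail CD44loCD62L+ cells, by a limma contrast of the populations with an adjusted p under 0.05 and a log2 difference of at least 1. The differences, CD44+CD62L+ minus CD44loCD62L+, equal those between the populations themselves, since the naive libraries are common to both. Mitosis genes were higher in the CD44+CD62L+ cells: Plk1 by 1.99, Ccnb1 by 1.98, Cdk1 by 1.92, Top2a by 1.75, Aurkb by 1.71, Birc5 by 1.60, Cdc20 by 1.55 and Mki67 by 1.35. So were S phase genes, with Rrm2 at 1.52, Tk1 at 1.35, Tyms, thymidylate synthase, at 1.28 and Cdc6 at 1.03, and the histone methyltransferase Suv39h1 stood at 1.13. In metabolism and stress, the serine synthesis gene Psat1 differed by 1.10, the transporter Slc7a5 by 1.035 and the chaperone partner Sdf2l1 by 1.005. The chemokine Xcl1 differed by 1.01. Genes lower in the CD44+CD62L+ cells were Klf2 at -1.55, S1pr1 at -1.27, Ifit3 at -1.20 and Vegfa at -1.04. CD44 defined the gate between these populations, and no library overlapped in the trafficking genes Klf2 and S1pr1.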

How the results depend on the processing

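The count of 2564 changed genes moved by over 1.5 times under a pseudocount of 5, which gave 1412 (930 higher, 482 lower), and under fold minimums on the log2 scale of 0.5, which gave 5616 (2978 higher, 2638 lower), and of 2, which gave 821 (618 higher, 203 lower). A pseudocount of 0.1 gave 3285, no filter 2560, a filter of 5 FPKM 2130, median-ratio scaling 2564, quantile normalization 2643 with 1414 higher and 1229 lower, the fit to 6 libraries 2569, no variance trend 2563, and the fits without genes listed at 0 and without small RNA genes 2518 and 2553. Leaving out each library gave 2567 to 2584. Replicate numbers did not pair the libraries, with correlations of deviations between same-numbered libraries of -0.0319, -0.12 and -0.0864, and the fit with the replicate block again called 2564, all shared with the fit without it.

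The same alternatives were applied to the supporting comparisons after the data were examined. Against IL-2 cells, 917 genes were called, 1429 with a pseudocount of 0.1, 387 with a pseudocount of 5, 3185 and 198 at log2 minimums of 0.5 and 2, and 916 to 926 when leaving out each library. Against cocktail CD44loCD62L+ cells, 301 were called, 495, 178, 1301 and 12 under the same settings, and 301 to 313 when leaving out each library. Of 363 named genes, none reversed under any setting. A pseudocount of 5 ended the calls of 23, among them Bach2, Bcl6, Btla, Tox, Gzmk, Oas2, Tap1, Tgtp1, Cxcr5 and Suv39h1, and quantile normalization those of Bst2, Cox5b, Gzmk, Klrd1 and Tap1. Quantile normalization called 8 of 19 sort marker and T cell identity genes lower, in place of 4. FPKM without depth limits what can be said of low genes.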
